A study of Mus musculus with 16 samples.

Results

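The 43 genes described here mark macrophages and other leukocytes of the heart. They were chosen by name and sorted by role into 14 genes of resident macrophages, 14 genes of the myeloid lineage at large, 8 genes shared by all leukocytes and 7 genes of T, NK and B cells or neutrophils. Of the 16593 genes named among the probes of the array, 40 are members. The rule goes by gene names and uses no measured value, but the genes were picked with earlier results of these data known. RNA of the cardiac left ventricle of 16 male mice, each 12 weeks old, was hybridized to 1 array per mouse. Each of the 2 strains, C57BL/6J and C57.YA, gave 4 sham mice and 4 CX mice, where CX stands for castration between 3 and 4 weeks of age, sham for the control surgery of the same age, and C57.YA for the C57BL/6J background with the Y chromosome of A/J. The comparisons asked which genes respond to castration in each strain and which differ with the Y chromosome under each surgery. The tissue was whole ventricle, in which leukocytes are a minority, so a change in the number of leukocytes cannot be told apart from a change in the RNA that each cell holds.

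The healthy heart holds resident macrophages, most of which settle before birth and renew themselves, beside smaller numbers of monocyte-derived macrophages. Resident cells carry scavenger and endocytic receptors such as those of Mrc1, Cd163, Stab1, Lyve1 and Folr2, secrete complement C1q and the A subunit of coagulation factor XIII, and clear cell debris. Myeloid genes at large encode lysozyme, receptors for immunoglobulin G and the adaptors through which those receptors signal. The transcription factor PU.1, an ETS factor that binds purine-rich sites around a GAGGAA core, is required to make and maintain macrophages.

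Promoters are shown for 5 members on which the results below turn: F13a1 and Mrc1, which were lower in CX C57BL/6J hearts than in both groups they were compared with, C1qb, which was lower there than in CX C57.YA hearts, Aif1, which rose with castration in C57.YA, and Cx3cr1, which rose with castration in C57BL/6J, where the 4 other resident macrophage genes called fell. Each is the RefSeq window of 250 bases before to 50 bases after the annotated start (GRCm38.p6), read 5′ to 3′ on the strand of the gene, with GAGGAA and its reverse complement TTCCTC in capitals. For F13a1 the window of the more upstream of 2 annotated starts is given.
F13a1 (chr13:37050195-37050494, minus strand): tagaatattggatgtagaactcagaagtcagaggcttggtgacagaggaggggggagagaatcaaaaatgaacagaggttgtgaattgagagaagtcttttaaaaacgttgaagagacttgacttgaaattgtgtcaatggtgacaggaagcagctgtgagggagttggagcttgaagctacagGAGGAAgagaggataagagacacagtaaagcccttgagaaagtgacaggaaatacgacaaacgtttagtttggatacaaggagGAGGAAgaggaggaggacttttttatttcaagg
Mrc1 (chr2:14229164-14229463, plus strand): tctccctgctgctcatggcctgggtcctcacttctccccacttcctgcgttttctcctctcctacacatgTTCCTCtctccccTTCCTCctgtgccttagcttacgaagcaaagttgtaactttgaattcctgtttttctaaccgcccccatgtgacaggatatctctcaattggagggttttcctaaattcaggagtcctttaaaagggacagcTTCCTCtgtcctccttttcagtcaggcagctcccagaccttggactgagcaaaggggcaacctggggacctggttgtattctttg
C1qb (chr4:136886151-136886450, minus strand): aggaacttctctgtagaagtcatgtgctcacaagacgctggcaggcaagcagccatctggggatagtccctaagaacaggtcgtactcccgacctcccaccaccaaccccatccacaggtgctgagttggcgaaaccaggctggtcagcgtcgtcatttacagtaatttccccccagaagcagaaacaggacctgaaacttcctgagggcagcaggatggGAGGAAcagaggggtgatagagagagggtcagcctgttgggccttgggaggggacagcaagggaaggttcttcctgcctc
Aif1 (chr17:35176003-35176302, minus strand): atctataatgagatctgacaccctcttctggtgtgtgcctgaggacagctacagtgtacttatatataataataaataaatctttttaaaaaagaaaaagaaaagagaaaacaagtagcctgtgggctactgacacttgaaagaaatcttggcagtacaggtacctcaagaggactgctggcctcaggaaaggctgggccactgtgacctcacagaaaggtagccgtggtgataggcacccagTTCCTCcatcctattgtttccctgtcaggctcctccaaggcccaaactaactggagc
Cx3cr1 (chr9:120068247-120068546, minus strand): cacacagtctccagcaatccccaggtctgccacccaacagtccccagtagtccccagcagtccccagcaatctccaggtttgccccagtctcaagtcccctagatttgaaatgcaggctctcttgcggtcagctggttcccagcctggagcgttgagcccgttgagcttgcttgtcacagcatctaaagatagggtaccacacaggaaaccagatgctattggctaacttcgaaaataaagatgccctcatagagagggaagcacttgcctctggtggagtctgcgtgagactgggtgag

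The core was searched on both strands of every window. It occurs 2 times in the window of F13a1, 3 times in that of Mrc1, 1 time in those of C1qb and Aif1, and not in that of Cx3cr1. This does not follow direction. Of other members called lower in CX C57BL/6J hearts, Lyz2, Fcer1g and S100a9 held no core, while Stab1, C1qc, Fcgr3 and S100a8 did. Windows were given for 33 of the 43 members, and 18 of these genes held the core in at least 1 of their windows. Counted by window, 20 of 39 (51.3%) held it, against 9289 of 32851 windows (28.3%) of all genes. A match of 6 letters is a description of the window and no binding site, and a window without one says nothing on the factor.

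Values are normalized signals on the log2 scale, so that a difference of 1 is a 2-fold change, and they compare arrays for 1 probe, never 1 probe with another. Between 11435 and 12212 probes were detected per array, with a mean intensity of 733 to 1208 before normalization. The 7 ventricular muscle genes measured were high in every group, with mean log2 signals of 14.25 to 14.44 per array. The CX C57BL/6J arrays stood apart by 4 genes of atrial muscle, which are Mybphl, Sln, Myl7 and Myl4. All 4 atrial genes were called higher there than in both comparison groups. Their summed intensity ran from 3687 to 13650 on the CX C57BL/6J arrays, from 675 to 748 on the sham C57BL/6J arrays, from 692 to 762 on the sham C57.YA arrays and from 676 to 1120 on the CX C57.YA arrays.

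Of the 43 members, 40 had at least 1 probe named for them, and Csf1r, Cd68 and Cd209f were not analysed here. A probe was tested where its detection p was at most 0.04 on at least 2 of the 4 arrays of any group, and 28 members passed, 25 of them detected on all 16 arrays. A gene is represented by its brightest tested probe. The other 12 members were detected on none of the 16 arrays, with group means between 5.93 and 6.85: the leukocyte integrin genes Itgam, Itgax and Itgb2, the high-affinity immunoglobulin receptor gene Fcgr1, the monocyte chemokine receptor gene Ccr2, the pan-leukocyte surface genes Ptprc, Cd48 and Cd37, the T cell receptor complex genes Cd3e and Cd3g, the B cell receptor gene Cd79a and the cytotoxic granule gene Nkg7. Both probes of Ptprc, the defining gene of leukocytes, were among them. The measured members are thus 12 of 14 resident macrophage genes, 9 of 14 general myeloid genes, 4 of 8 pan-leukocyte genes and 3 of 7 genes of other lineages. The label of macrophages rests on Adgre1, the gene of the F4/80 antigen, on the 3 C1q genes and on the scavenger receptor genes, all detected on every array. That of T and B cells has no such ground, since Cd79b was the only lymphocyte gene tested among the members.

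Within a group, the members rose and fell together from mouse to mouse. After the group means were removed, the correlation over the 16 arrays had a median of 0.53 over the 378 pairs of tested members and was above 0 in 372 of them, whereas the median over all pairs of the 8831 genes tested was 7.87e-05. All 66 pairs of the resident macrophage genes were above 0, with a median of 0.58. Set against the mean of the other members, Fcer1g (r = 0.96), C1qb (r = 0.96), Ms4a7 (r = 0.93) and Fcgr2b (r = 0.92) followed it most closely, while Fcgr3 (r = 0.36), Tyrobp (r = 0.40) and Cd79b (r = 0.42) followed it least. These are descriptions, since all genes share the arrays and the same RNA. For the same reason, the numbers of members above or below 0 given below do not count independent genes. A few mice can move all of them.

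The mean over the 28 members shows which mice this concerns. It was 9.04, 9.08, 8.998 and 9.22 on the sham C57BL/6J arrays and 8.78, 8.70, 8.84 and 9.12 on the CX C57BL/6J arrays, replicates 1 to 4. On the sham C57.YA arrays it was 8.91, 9.004, 9.08 and 8.97, and on the CX C57.YA arrays 8.98, 9.08, 9.42 and 8.96. Replicates 1, 2 and 3 of CX C57BL/6J were the lowest of all 16 arrays and replicate 3 of CX C57.YA was the highest, while replicate 4 of CX C57BL/6J lay within the range of the sham C57BL/6J arrays.

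**Figure D1:**
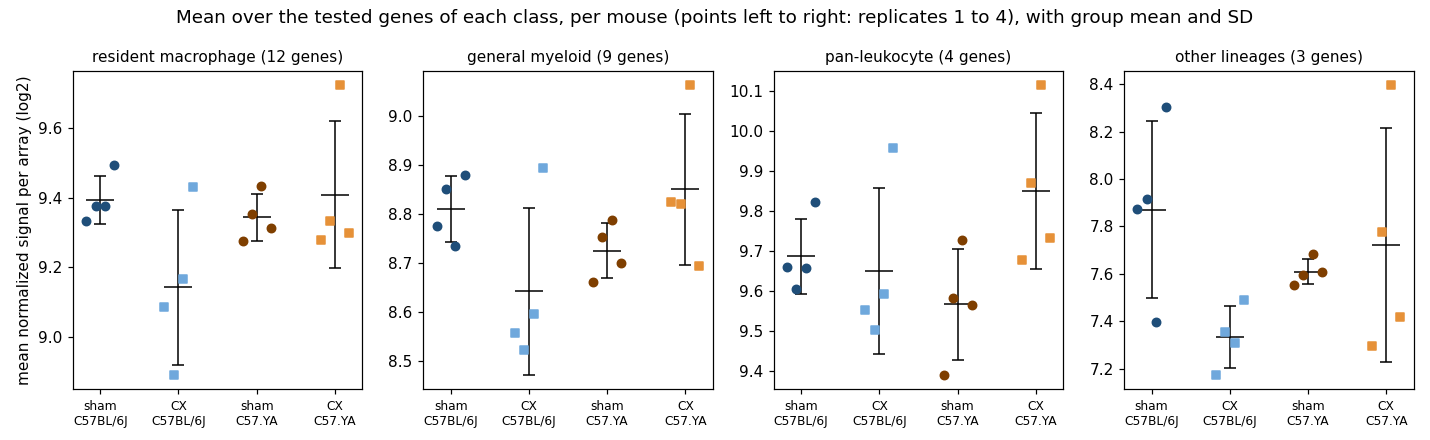
Mean normalized log2 signal of the tested members of each class on each array (points, 4 mice per group, replicates 1 to 4 from left to right), with the group mean and SD (bars). For the 12 resident macrophage genes, 3 of the 4 CX C57BL/6J arrays lie below every other array and replicate 3 of CX C57.YA lies at 9.72, above every other array.

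Castration in C57BL/6J was followed by lower signals of F13a1, Mrc1, Lyve1 and Stab1 and of the neutrophil genes S100a8 and S100a9. Cx3cr1 had a higher signal. At an adjusted p under 0.1, 6 of the 28 tested members fell and 1 rose (25.0%), against 9.26% of all genes tested, of which 4.94% fell and 4.33% rose. The median log2 difference of the members was -0.24, and 23 of 28 lay below 0, whereas the median over all genes was 0.00 with 49.8% below 0. Among the resident macrophage genes, 4 of 12 fell and 1 rose, and 10 lay below 0. Adgre1, on which the label of macrophages rests in part, was not called, with -0.01 (adjusted p of 0.974). Ms4a7 was not called either, with 0.12 (adjusted p of 0.66). None of the 9 general myeloid genes and none of the 4 pan-leukocyte genes was called, with 2 and 1 of them, respectively, lower at an unadjusted p under 0.05. Of all 12764 tested probes, 2532 passed that limit in either direction. The groups did not overlap for 4 of the 28 members (F13a1, Mrc1, Cx3cr1 and Tyrobp), against 12.6% of all genes tested.

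Genes of other cell types of the ventricle were compared in the same way. None of the 5 tested endothelial genes was called in C57BL/6J, but all 5 lay below 0, with a median of -0.13. Their mean log2 signal was 10.20, 10.21, 10.23 and 10.30 on the sham C57BL/6J arrays and 10.02, 9.86, 10.23 and 10.21 on the CX C57BL/6J arrays, so that CX replicates 1 and 2 lay below every sham array. Of 7 fibroblast genes, the matrix genes Lum (0.76) and Col3a1 (0.56) rose, and the mean of the 7 ran from 10.04 to 10.24 on the sham and from 10.02 to 10.66 on the CX arrays. Of 2 tested mesothelial genes none was called in C57BL/6J. The part of these cells in the values of the members was not tested.

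**Figure D2:**
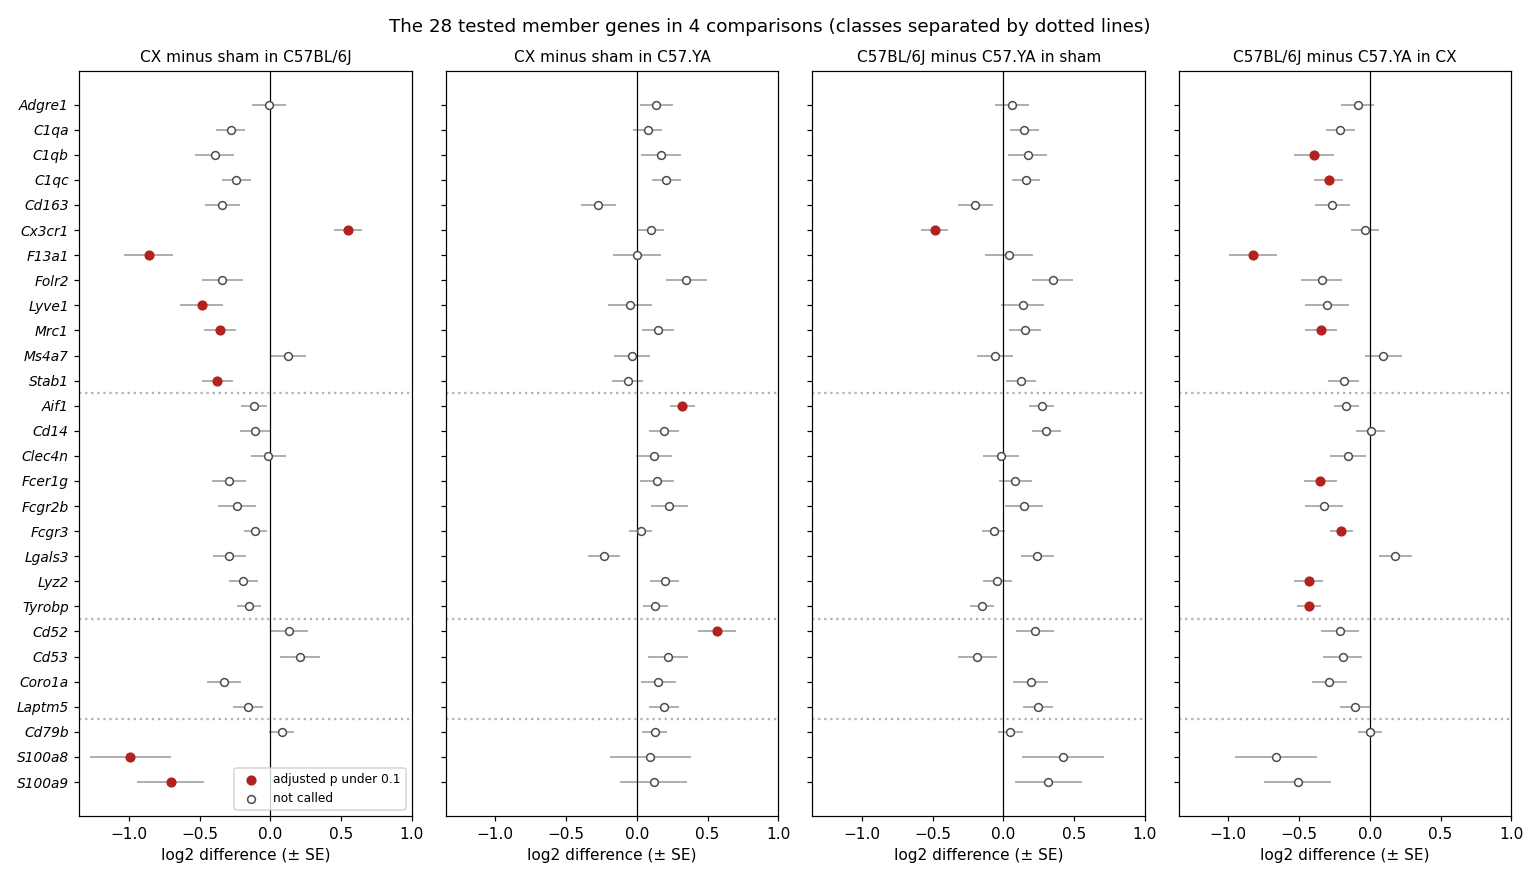
Log2 difference (points) and its standard error (lines) of each of the 28 tested members in 4 comparisons, with calls at an adjusted p under 0.1 in red. In C57BL/6J, 23 of 28 differences between CX and sham lie below 0, and in C57.YA 23 of 28 lie above 0.

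F13a1 encodes the A subunit of coagulation factor XIII, the transglutaminase that crosslinks fibrin, and is expressed by resident macrophages. Its log2 signal was 10.91, 11.02, 10.66 and 10.91 in sham C57BL/6J hearts and 9.998, 9.54, 10.18 and 10.35 in CX C57BL/6J hearts. In sham C57.YA hearts it was 10.55, 10.77, 10.86 and 11.18, and in CX C57.YA hearts 10.57, 10.58, 11.31 and 10.91. All 4 CX C57BL/6J hearts lay below the other 12 hearts. The gene fell with castration in C57BL/6J by 0.86 ± 0.17 (log2 difference ± SE, n = 4 per group), or 1.82-fold, with an adjusted p of 0.00485. In C57.YA its difference was 0.00, with a 95% confidence interval from -0.35 to 0.36.

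Mrc1 encodes the mannose receptor. Its signal was 10.04, 9.97, 10.04 and 10.02 in sham C57BL/6J hearts and 9.73, 9.36, 9.72 and 9.86 in CX C57BL/6J hearts, without overlap. It was 9.72, 9.75, 10.10 and 9.87 in sham C57.YA hearts and 9.86, 9.96, 10.35 and 9.87 in CX C57.YA hearts, where the groups overlap. Mrc1 fell with castration in C57BL/6J by 0.35 ± 0.11 (1.28-fold, adjusted p of 0.0766).

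Lyve1 encodes a hyaluronan receptor of tissue macrophages and of lymphatic endothelium. Its signal was 10.31, 10.02, 10.27 and 10.18 in sham C57BL/6J hearts and 9.75, 9.17, 9.89 and 10.03 in CX C57BL/6J hearts. The 2 groups touch at their nearest arrays, and replicate 2 of CX C57BL/6J is the lowest of all 16. In C57.YA, Lyve1 was at 10.01, 10.18, 10.10 and 9.94 after sham surgery and at 9.60, 10.03, 10.34 and 10.08 after castration. Lyve1 fell in C57BL/6J by 0.49 ± 0.15 (1.40-fold, adjusted p of 0.0735). Of 3 other lymphatic endothelium genes, Prox1 and Pdpn were not called in this comparison, with log2 differences of 0.01 and -0.07, and the lymphatic chemokine gene Ccl21a rose by 0.78 (adjusted p of 0.005).

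Stab1 encodes the scavenger receptor stabilin-1. Its signal was 8.05, 8.24, 8.41 and 8.44 in sham C57BL/6J hearts and 7.81, 7.66, 7.998 and 8.16 in CX C57BL/6J hearts, and replicate 4 of the CX group reached into the sham range. The C57.YA hearts had 8.34, 8.02, 8.27 and 8.01 after sham surgery and 8.07, 8.12, 8.17 and 8.01 after castration. Stab1 fell in C57BL/6J by 0.38 ± 0.11 (1.30-fold, adjusted p of 0.048).

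Cx3cr1 encodes the receptor of fractalkine and marks resident macrophages as well as circulating monocytes. Its signal was 7.39, 7.18, 7.32 and 7.31 in sham C57BL/6J hearts, and 7.79, 7.71, 7.92 and 7.97 in CX C57BL/6J hearts. The C57.YA hearts had 7.86, 7.72, 7.81 and 7.74 after sham surgery and 7.82, 7.66, 8.24 and 7.80 after castration. The sham C57BL/6J hearts were the lowest 4 of the 16 and overlapped no other group, and the other 3 groups overlapped one another. Cx3cr1 rose with castration in C57BL/6J by 0.55 ± 0.10 (1.46-fold, adjusted p of 0.00217), against the direction of the other 4 resident macrophage genes called. In C57.YA the difference was 0.10, with a 95% confidence interval from -0.11 to 0.30.

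S100a8 and S100a9 encode the subunits of calprotectin, which fills the cytosol of neutrophils. S100a8 was at 8.84, 8.92, 8.06 and 9.53 in sham C57BL/6J hearts, at 7.52, 7.88, 7.75 and 8.24 in CX C57BL/6J hearts, at 8.20, 8.32, 8.54 and 8.60 in sham C57.YA hearts and at 7.83, 8.54, 9.51 and 8.16 in CX C57.YA hearts. S100a9 was at 7.77, 7.79, 7.01 and 8.26 in sham C57BL/6J hearts, at 6.90, 6.98, 6.97 and 7.15 in CX C57BL/6J hearts, at 7.47, 7.49, 7.22 and 7.38 in sham C57.YA hearts and at 6.97, 7.66, 8.32 and 7.08 in CX C57.YA hearts. The same sham C57BL/6J heart, replicate 3, was low and the same CX C57.YA heart, replicate 3, was high for both genes, and each group of C57BL/6J overlapped the other. S100a8 fell with castration in C57BL/6J by 0.99 ± 0.29 (1.99-fold, adjusted p of 0.052) and S100a9 by 0.71 ± 0.24 (1.63-fold, adjusted p of 0.0932). S100a9 was detected on 1 of 4 CX C57BL/6J arrays, so its level there lies near the background. Of 4 erythroid genes measured as a sign of blood in the tissue (Hba-a1, Hbb-bt, Alas2 and Slc4a1), none was called in any comparison. Their mean log2 signal ran from 11.54 to 12.06 on the sham C57BL/6J arrays and from 11.43 to 11.87 on the CX C57BL/6J arrays, and it was 12.02 on replicate 3 of CX C57.YA. The part of blood in these values was not tested. The neutrophil receptor gene Csf3r, the only gene tested of 9 further neutrophil genes, differed by -0.14 (adjusted p of 0.395).

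**Figure D3:**
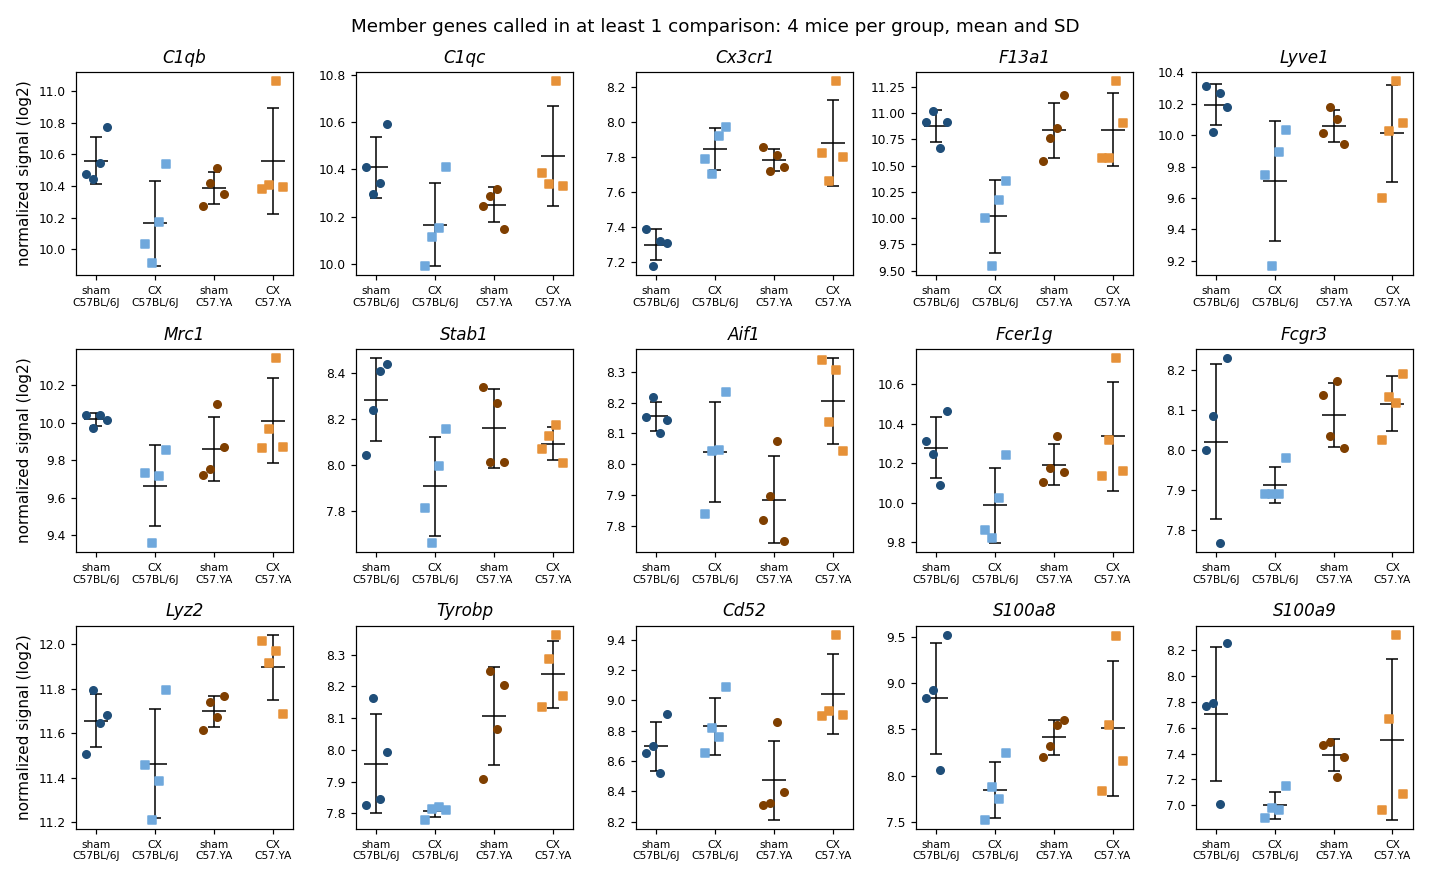
Normalized log2 signal of the 15 members called in at least 1 comparison, with 4 mice per group (points, replicates 1 to 4 from left to right), the group mean (horizontal mark) and the SD (bars). For F13a1 the 4 CX C57BL/6J hearts lie below the other 12, and for Cx3cr1 the 4 sham C57BL/6J hearts lie below the other 12.

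The calls in C57BL/6J differed in how far they rested on single arrays. F13a1 and Cx3cr1 were called whichever of the 16 arrays was left out, with adjusted p values of at most 0.0197 and 0.0101. The call of Mrc1 was lost without any 1 of 7 arrays, all 4 of sham C57BL/6J and replicates 1, 2 and 3 of CX C57BL/6J. That of Lyve1 was lost without sham replicates 1, 3 or 4 or CX replicates 1 or 2, that of Stab1 without sham replicates 3 or 4 or CX replicates 1 or 2, that of S100a8 without sham replicates 2 or 4 or CX replicates 1 or 3, and that of S100a9 without any 1 of 9 arrays. The number of members called was 2 without sham replicate 4 or without CX replicate 1, 3 without CX replicate 2 and 4 without sham replicate 3 or CX replicate 3. Without CX replicate 4 it was 14, of which 13 were lower. Over all tested probes, 1124 were called with every array. In the settings just named the number was 694, 962, 833, 720, 808 and 1065, in that order.

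Castration in C57.YA was followed by higher signals of Aif1 and Cd52. Of the 28 members, 2 rose and none fell (7.14%), against 20.5% of all genes tested. At an unadjusted p under 0.05, 3 rose and 1 fell, while 3603 of all 12764 tested probes passed that limit in either direction. The median difference was 0.13 with 23 of 28 above 0, against a median of 0.00 over all genes. The 12 resident macrophage genes had no call. Folr2 had a difference of 0.35 (adjusted p of 0.117) and Cd163 one of -0.27 (adjusted p of 0.156). The groups did not overlap for 2 of the 28 members, Cd52 and C1qc, against 20.7% of all genes tested. Both tested mesothelial genes, Upk3b (-1.16) and Wt1 (-0.27), fell in this comparison, and the fibroblast genes Lum (1.01) and Col3a1 (0.50) rose. None of the 5 tested endothelial genes was called. As in C57BL/6J most of them lay below 0, here 4 of 5, with a median of -0.09, while most members lay above 0. The part of these cell types in the values of the members was not tested.

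Aif1 encodes a calcium-binding protein of the macrophage cytoskeleton, also known as Iba1. Its signal was 7.82, 7.90, 8.08 and 7.75 in sham C57.YA hearts and 8.34, 8.14, 8.31 and 8.04 in CX C57.YA hearts, where only sham replicate 3 reached into the CX range. The C57BL/6J hearts had 8.15, 8.22, 8.10 and 8.15 after sham surgery and 7.84, 8.04, 8.05 and 8.24 after castration. Aif1 rose with castration in C57.YA by 0.32 ± 0.09 (1.25-fold, adjusted p of 0.0215). A second tested probe of Aif1 gave 0.14 with an adjusted p of 0.261 and was not called.

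Cd52 encodes a short glycopeptide anchored to the surface of lymphocytes and macrophages. Its signal was 8.31, 8.32, 8.86 and 8.40 in sham C57.YA hearts and 8.90, 8.93, 9.43 and 8.91 in CX C57.YA hearts, without overlap. The C57BL/6J hearts had 8.65, 8.70, 8.52 and 8.91 after sham surgery and 8.65, 8.82, 8.76 and 9.09 after castration, with wide overlap. Cd52 rose in C57.YA by 0.57 ± 0.13 (1.48-fold, adjusted p of 0.00824), and its difference in C57BL/6J was 0.13, with a 95% confidence interval from -0.15 to 0.42. Both calls held whichever array was left out, and neither held without the pair of sham C57.YA replicates 1 and 2.

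Between the sham groups, 1 member was called. The level of Cx3cr1 in C57BL/6J was below that in C57.YA, with a difference of -0.49 ± 0.10 (1.40-fold, adjusted p of 0.0103), which is 3.57% of the members against 4.55% of all genes tested, and it was called whichever array was left out. The median difference of the members was 0.14 with 20 of 28 above 0, against 0.01 over all genes. Cd14, the gene of the lipopolysaccharide co-receptor, Aif1 and Laptm5 did not overlap between the 2 sham groups but were not called, with differences of 0.30 (adjusted p of 0.139), 0.27 (adjusted p of 0.123) and 0.25 (adjusted p of 0.255). With Cx3cr1 these are 4 of 28 members without overlap, against 9.82% of all genes tested. F13a1 differed by 0.04, with a 95% confidence interval from -0.32 to 0.40.

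Between the CX groups, 8 of the 28 members were called, each with the lower signal in C57BL/6J. This is 28.6% of the members against 22.4% of all genes tested, a share near the background. Of the genes at large, 10.8% were lower and 11.6% higher. Since the members rose and fell together from mouse to mouse, their common direction is not 8 separate results. The median difference of the members was -0.24 with 24 of 28 below 0, and that of all genes was 0.01 with 48.0% below 0. At an unadjusted p under 0.05, 14 members were lower and none higher, while 3893 of all 12764 tested probes passed that limit in either direction. The CX C57BL/6J arrays enter this comparison and that of surgery in C57BL/6J, and F13a1 and Mrc1 were called in both. The groups did not overlap for 4 of the 28 members, against 20.6% of all genes tested. Of the genes of other cell types, the endothelial cadherin gene Cdh5 was lower in CX C57BL/6J hearts (-0.32, adjusted p of 0.0153), and the other 4 endothelial genes were below 0 without a call. Of 7 ventricular muscle genes 1 was called lower. In the other direction, 1 of 2 mesothelial genes and 1 of 3 lymphatic endothelium genes were called higher. None of 7 fibroblast genes was called. The part of these cell types was not tested.

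Of the resident macrophage genes, 4 of 12 were lower. F13a1, with the values given above, differed by -0.82 ± 0.17 (1.77-fold, adjusted p of 0.00387) and Mrc1 by -0.35 ± 0.11 (1.27-fold, adjusted p of 0.0433), both without overlap. C1qb and C1qc encode chains of the complement protein C1q. C1qb was at 10.03, 9.92, 10.18 and 10.54 in CX C57BL/6J hearts and at 10.38, 10.40, 11.06 and 10.39 in CX C57.YA hearts, and in the sham groups at 10.48, 10.44, 10.54 and 10.77 in C57BL/6J and at 10.27, 10.42, 10.51 and 10.35 in C57.YA. C1qc was at 9.99, 10.11, 10.15 and 10.41 in CX C57BL/6J hearts and at 10.38, 10.34, 10.77 and 10.33 in CX C57.YA hearts, and in the sham groups at 10.41, 10.30, 10.34 and 10.59 in C57BL/6J and at 10.24, 10.29, 10.32 and 10.15 in C57.YA. For both genes, replicate 3 of CX C57.YA was the highest of the 16 arrays and replicate 4 of CX C57BL/6J reached into the CX C57.YA range. C1qb differed by -0.39 ± 0.14 (1.31-fold, adjusted p of 0.0634) and C1qc by -0.29 ± 0.10 (1.22-fold, adjusted p of 0.0596). C1qa, the third chain, had a difference of -0.21 (adjusted p of 0.18).

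Of the general myeloid genes, 4 of 9 were lower. Tyrobp and Fcer1g encode adaptors that pass on signals of activating receptors. Tyrobp was at 7.78, 7.81, 7.82 and 7.81 in CX C57BL/6J hearts and at 8.13, 8.29, 8.36 and 8.17 in CX C57.YA hearts, without overlap, and in the sham groups at 7.83, 8.16, 7.84 and 7.99 in C57BL/6J and at 7.91, 8.25, 8.07 and 8.21 in C57.YA. It differed by -0.43 ± 0.09 (1.35-fold, adjusted p of 0.00313). Fcer1g was at 9.86, 9.82, 10.02 and 10.24 in CX C57BL/6J hearts and at 10.14, 10.32, 10.73 and 10.16 in CX C57.YA hearts, with replicate 4 of C57BL/6J inside the C57.YA range, and in the sham groups at 10.31, 10.25, 10.09 and 10.46 in C57BL/6J and at 10.10, 10.17, 10.34 and 10.16 in C57.YA. It differed by -0.35 ± 0.12 (1.27-fold, adjusted p of 0.053).

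Lyz2, the gene of the lysozyme of macrophages and neutrophils, was at 11.46, 11.21, 11.39 and 11.79 in CX C57BL/6J hearts and at 12.01, 11.91, 11.97 and 11.69 in CX C57.YA hearts. In the sham groups it was at 11.50, 11.79, 11.65 and 11.68 in C57BL/6J and at 11.61, 11.74, 11.67 and 11.76 in C57.YA. Replicate 4 of CX C57BL/6J was above replicate 4 of CX C57.YA, and the other arrays of these 2 groups were apart. Lyz2 differed by -0.43 ± 0.10 (1.35-fold, adjusted p of 0.00858). A second tested probe of Lyz2 gave -0.19 in this comparison (adjusted p of 0.179) and was not called, and it was called in that of surgery in C57BL/6J, with -0.29 (adjusted p of 0.0804), where the brighter probe gave -0.19 (adjusted p of 0.313).

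Fcgr3, the gene of a low-affinity receptor for immunoglobulin G, was at 7.89, 7.89, 7.89 and 7.98 in CX C57BL/6J hearts and at 8.03, 8.13, 8.12 and 8.19 in CX C57.YA hearts, without overlap. The sham hearts had 8.001, 8.09, 7.77 and 8.23 in C57BL/6J and 8.14, 8.04, 8.17 and 8.01 in C57.YA, a range that holds every CX heart. Fcgr3 differed by -0.20 ± 0.08 (1.15-fold, adjusted p of 0.0951). No pan-leukocyte gene and no gene of other lineages was called between the CX groups, with 1 of 4 and 2 of 3, respectively, lower at an unadjusted p under 0.05. Of all 12764 tested probes, 3893 passed that limit in this comparison.

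F13a1, Lyz2 and Tyrobp were called between the CX groups whichever array was left out. The call of Mrc1 was lost without replicate 2 of CX C57BL/6J or replicate 3 of CX C57.YA, that of Fcer1g without either of these or replicate 1 of CX C57BL/6J, those of C1qb and C1qc without any of these or replicate 3 of CX C57BL/6J, and that of Fcgr3 without any 1 of 10 arrays. The number of members called was 3 without replicate 2 of CX C57BL/6J, 4 without its replicate 1 or without replicate 3 of CX C57.YA, and 5 without replicate 3 of CX C57BL/6J. It was 12 without replicate 1 of CX C57.YA and 18, all lower, without replicate 4 of CX C57BL/6J. Over all tested probes, 2992 were called with every array. In the settings just named the number was 2163, 2871, 2238, 2390, 2410 and 2851, in that order.

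The interaction asks whether the response to castration differed between the strains. It was called for F13a1, with -0.86 ± 0.24 (adjusted p of 0.0821), and for Aif1, with -0.44 ± 0.13 (adjusted p of 0.0965). These are 7.14% of the members against 2.88% of all genes tested, and both responses were more negative in C57BL/6J. The median over the members was -0.37 with 26 of 28 below 0, against 0.00 over all genes. The members not called ran from S100a8, with -1.09 (adjusted p of 0.21), to Cx3cr1, with 0.45 (adjusted p of 0.118). Folr2, the gene of folate receptor beta, had an interaction of -0.69 (adjusted p of 0.105), with differences of -0.34 in C57BL/6J and 0.35 in C57.YA that were not called. The call of F13a1 was lost without any 1 of 9 arrays and that of Aif1 without any 1 of 13, and no member was called without replicate 1 or 2 of CX C57BL/6J, replicate 2 or 4 of sham C57BL/6J, or replicate 1 or 2 of sham C57.YA. Without replicate 4 of CX C57BL/6J, 8 were called. Over all tested probes, the interaction had 368 calls with every array. In the settings that left no member called it had 396, 246, 236, 356, 271 and 200, in the order named. Without replicate 4 of CX C57BL/6J it had 386. Of the genes of other cell types of the ventricle, 1 of 2 mesothelial genes and all 4 atrial genes had called interactions, all above 0.

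The 13 members with no call in any comparison had log2 differences between -0.34 and 0.21 for castration in C57BL/6J, between -0.27 and 0.35 for castration in C57.YA, between -0.20 and 0.35 between the sham groups and between -0.34 and 0.18 between the CX groups. Adgre1 was among them. Its group means were 9.56 in sham C57BL/6J, 9.55 in CX C57BL/6J, 9.49 in sham C57.YA and 9.63 in CX C57.YA hearts, and its difference with castration in C57BL/6J was -0.01, with a 95% confidence interval from -0.26 to 0.24. Its second tested probe gave -0.16 (adjusted p of 0.417). Ms4a7, which encodes a membrane protein of resident macrophages, had means of 8.21, 8.34, 8.27 and 8.24 in the same order, and Cd163, the gene of the haemoglobin scavenger receptor, 9.71, 9.37, 9.91 and 9.64. Laptm5, a lysosomal membrane gene of leukocytes, had means of 12.31, 12.15, 12.06 and 12.25, and Coro1a, the gene of a leukocyte actin-binding coronin, 9.60, 9.28, 9.41 and 9.56. The B cell receptor gene Cd79b had means of 7.07, 7.15, 7.02 and 7.15.

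Further genes were taken from lists, which also hold genes that are not particular to leukocytes, such as Gas6 and Tmsb4x. Of 34 further macrophage and myeloid genes, 23 were tested, and 1 fell and none rose with castration in C57BL/6J, 3 rose and none fell with castration in C57.YA, and 5 were lower and none higher in C57BL/6J between the CX groups. These are 4.35%, 13% and 21.7% of the list, against 9.26%, 20.5% and 22.4% of all genes tested, shares at or below the background. The median differences were -0.09, 0.10 and -0.11. Between the sham groups 1 gene of the list was called, the scavenger receptor gene Marco, which was higher in C57BL/6J (0.30). In the interaction 2 were called, Cbr2 and Marco (-0.40). These are 4.35% and 8.7% of the list, against 4.55% and 2.88% of all genes tested, so the share in the interaction was above the background. Cbr2, a carbonyl reductase gene of resident macrophages, was at 10.20, 10.02, 9.98 and 10.29 in sham C57BL/6J hearts and at 9.33, 9.49, 9.40 and 9.64 in CX C57BL/6J hearts, without overlap. It fell by 0.66 ± 0.10 (1.58-fold, adjusted p of 0.000279), with an interaction of -0.46 (adjusted p of 0.098). Spi1, which encodes PU.1 itself, was at 6.95, 7.02, 7.21 and 6.98 in CX C57BL/6J hearts, where 2 of 4 arrays detected it, and at 7.57, 7.68, 7.83 and 7.72 in CX C57.YA hearts, without overlap. It differed between the CX groups by -0.66 ± 0.16 (1.58-fold, adjusted p of 0.00834). The chemokine gene Pf4 (-0.48), the debris receptor gene Mertk (-0.34) and its ligand Gas6 (-0.21) were also lower in CX C57BL/6J hearts. The genes that rose in C57.YA were Ly86 (0.55), the cathepsin gene Ctss (0.35) and Marco (0.21).

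Of 23 further pan-leukocyte genes, 14 were tested. With castration in C57BL/6J, with castration in C57.YA and between the CX groups, 7.14%, 14.3% and 14.3% of them were called. Each is below the share of all genes. Plek, an actin regulator of blood cells, fell by 0.32 with castration in C57BL/6J (adjusted p of 0.0774), and Evi2a (0.43) and Was (0.21) rose with castration in C57.YA. Evi2a was also higher in C57BL/6J than in C57.YA between the sham groups (0.45, adjusted p of 0.0078), and its interaction was -0.47 (adjusted p of 0.0637). It was the 1 gene of the list called in each of these comparisons, or 7.14%, against 4.55% and 2.88% of all genes. Between the CX groups, Was (-0.24) and the actin-binding gene Tmsb4x (-0.30) were lower in C57BL/6J. Of 16 T and NK cell genes, 4 were tested. The chemokine gene Ccl5 rose by 0.49 with castration in C57BL/6J (adjusted p of 0.0439), and the perforin gene Prf1 was lower by -0.44 in C57BL/6J between the CX groups (adjusted p of 0.0208).

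Inside the CX C57BL/6J group, the 4 arrays stood in opposite order by the atrial genes and by the member genes. Averaged over the 4 atrial genes, the log2 signal was 9.88, 11.16, 9.54 and 9.23 on replicates 1 to 4, and the mean over the 28 members was 8.78, 8.70, 8.84 and 9.12 on the same arrays. The array highest in atrial genes was the lowest in the members, and the array lowest in atrial genes was the highest in the members. On the CX C57.YA arrays the atrial mean was 7.65, 7.16, 7.14 and 7.09. Replicate 1, the highest in it, had a member mean of 8.98, close to the lowest, 8.96 on replicate 4. For the 12 resident macrophage genes replicate 1 was the lowest of this group, with 9.28, 9.33, 9.72 and 9.30 on replicates 1 to 4. For the 9 general myeloid genes replicate 4 was the lowest, at 8.69 against 8.82 on replicate 1. With the atrial mean as a term of the model, no member was called with castration in C57BL/6J, between the CX groups or in the interaction. In these comparisons 5, 3 and 3 members had an unadjusted p under 0.05, all of them higher. The loss of calls was not particular to the members. Over all 12764 tested probes, the calls went from 1124, 2992 and 368 to 80, 0 and 53 with this term. The difference of F13a1 between CX and sham C57BL/6J then changed from -0.86 to 0.31, and that of Cx3cr1 from 0.55 to 0.94 (adjusted p of 0.149). The atrial mean of every CX C57BL/6J array lay above that of the other 12 arrays, so atrial tissue in the sample and the CX C57BL/6J group cannot be told apart here. The calls of Aif1 and Cd52 in C57.YA and of Cx3cr1 between the sham groups remained with this term.

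**Figure D4:**
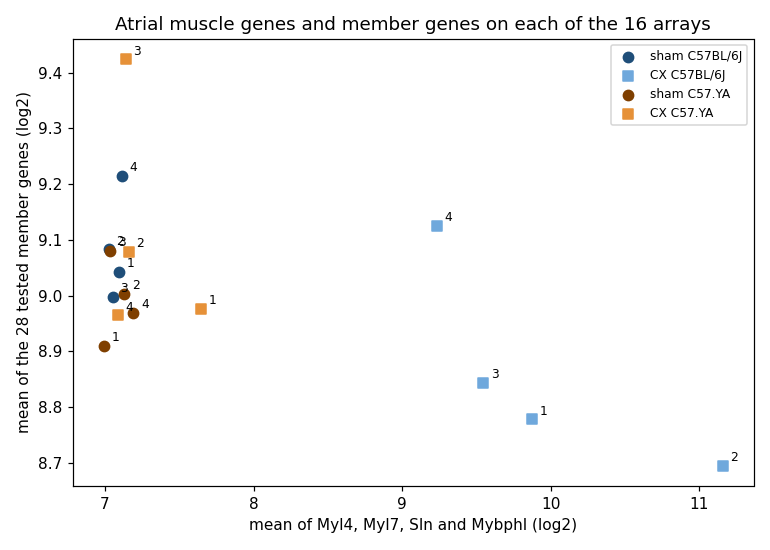
Mean over the 4 atrial genes on the log2 scale (horizontal axis) and mean of the 28 tested members (vertical axis) on each of the 16 arrays, labelled with the replicate number. The 4 CX C57BL/6J arrays lie between 9.23 and 11.16 in atrial signal, above every other array, and among them the member signal is lowest where the atrial signal is highest.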

How the data were processed

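The arrays were MouseRef-8 v2.0 BeadChips of Illumina, 2 chips with 8 arrays each, and 16 left ventricles were measured. Probe intensities were deposited as average bead signals before any normalization, each with a detection p-value against the negative controls of the array. A second table from the authors holds quantile-normalized log2 values. Because its row names differ from those of the intensity table, rows were paired by value, and it served as an alternative only. A further 32 columns with bead statistics were left out. Probes were named through Entrez numbers (23962 of 25697), 16 more by the symbol in the annotation table, and 1719 had no name.

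Intensities were log2-transformed and quantile-normalized without background subtraction. Probes with a detection p of at most 0.04 on at least 2 of 4 arrays of a group were tested, 12764 in all, for 8831 genes. Group means were fitted over the 16 arrays in R 4.3.3 by lmFit and eBayes of limma 3.58.1 (with statmod 1.5.0), and p-values were adjusted by the Benjamini-Hochberg method over all tested probes, with calls under 0.1. Each difference carries its standard error from this fit. The methods of the study use a shrunken variance with permutations and an adaptive false discovery rate, of which the adaptive rate was run as an alternative. Chip and group could not be set apart, because the assignment of arrays to chips is not given in the sources used here. No source says that the mice of a group came from separate litters, so p-values measure the spread between these mice. The number of arrays limits the precision.

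The 28 tested members were reported by their brightest tested probe, the other 15 were named, and the values of each array were printed for those called in at least 1 of 5 comparisons. Of further lists, the counts in each direction were used, with at most 6 called genes named per comparison. The members were chosen by name, and they, the lists and the alternatives were chosen with earlier results of these data known.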

Additional observations from a re-analysis of the deposited data

Results flagged for a closer look

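Among the 112 sets of 4 arrays that the 28 tested members form, 8 held 1 array far from the other 3, by a gap whose share of the whole range was above the 95% critical value of Dixon, a limit that chance passes in about 1 in 20 such sets. Replicate 3 of CX C57.YA stood high for C1qb (11.06, nearest array 10.40), C1qc (10.77, nearest 10.38), Fcgr2b (8.92, nearest 8.36) and Cd52 (9.43, nearest 8.93). Replicate 4 of CX C57BL/6J stood high for Fcgr3 (7.98, nearest 7.89) and Cd53 (8.84, nearest 8.23). Replicate 3 of sham C57.YA stood high for Cd52 (8.86, nearest 8.40), and replicate 2 of sham C57BL/6J stood low for Lgals3 (9.56, nearest 9.69).

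The response to castration differed between the strains, by the interaction of the model, for F13a1 (-0.86) and Aif1 (-0.44).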

How the results depend on the processing

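In the order castration in C57BL/6J, castration in C57.YA, sham groups, CX groups and interaction, 7, 2, 1, 8 and 2 members were called. Over all 12764 tested probes, 1124, 2510, 548, 2992 and 368 were called. Neqc background correction gave 4 in C57BL/6J and 1 in the interaction, and median scaling gave 4 in C57BL/6J, 5 between the CX groups and 1 in the interaction. Over all probes, neqc gave 1015 and 290 in these comparisons, and median scaling 563, 2089 and 152. An adjusted p under 0.05 left 3, 4 and 0 members in C57BL/6J, between the CX groups and in the interaction, and 675, 2037 and 184 probes. At an unadjusted p under 0.05 the interaction had 16 members lower and 1 higher, and 1918 of all 12764 probes in either direction. The adaptive false discovery rate gave 11, 4, 2, 14 and 4 members, and 1459, 3334, 759, 3858 and 491 probes. Without the detection filter the interaction had 1 call, and with detection on all 4 arrays or with array weights it had 4. Over all probes these settings gave 272 of 25697, 433 of 10400 and 579 of 12764. The 8 arrays of a comparison alone gave 4 members in C57.YA and 2 between the sham groups, and 2463 and 321 probes. Without sham C57.YA replicates 1 and 2, a pair chosen after seeing the data, there were 0 calls in C57.YA and in the interaction (3 and 10 at an unadjusted p under 0.05) and 2 between the sham groups, and without replicates 3 and 4 there were 6 in the interaction. Over all probes, leaving out replicates 1 and 2 gave 1510 calls in C57.YA, 140 in the interaction and 2042 between the sham groups. Leaving out replicates 3 and 4 gave 1703 in the interaction.

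With the atrial mean as a term, the calls were 0 in C57BL/6J, 4 in C57.YA, 0 between the CX groups and 0 in the interaction. Over all tested probes they were 80, 2782, 0 and 53 in the same order, against 1124, 2510, 2992 and 368 without the term. Signs reversed only under this term, for castration in C57BL/6J of Mrc1 (0.38), Lyve1 (0.94), Stab1 (0.30) and F13a1 (0.31), between the CX groups of Mrc1 (0.34), C1qb (0.33), F13a1 (0.27), Lyz2 (0.054) and Fcer1g (0.19), and in the interaction of F13a1 (0.24). The cause was not tested.

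Leaving out each array in turn gave 2 to 14 calls in C57BL/6J, 2 to 4 in C57.YA, 1 to 3 between the sham groups, 3 to 18 between the CX groups and 0 to 8 in the interaction. With the replicate number as a block there were 8, 2, 1, 10 and 4 calls among the members, and 1319, 2705, 694, 3202 and 426 over all probes. The numbers are not known to pair mice, since deviations of same-numbered arrays correlated between -0.03 and 0.20 and at most 6 of 8 arrays of a comparison correlated best with their own number. The BeadChip as a block was not run. Members near the background, S100a9 on 1 of 4, Clec4n on 2 of 4 and Cd79b on 3 of 4 arrays of a group, are limited by their signal.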

Other observations

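Other leukocyte lineages were near the limit of detection. Of 6 mast cell genes 2 were tested, and Cpa3, which encodes mast cell carboxypeptidase, fell by 0.49 with castration in C57.YA (adjusted p of 0.0134) and was higher by 0.36 in C57BL/6J than in C57.YA between the CX groups (adjusted p of 0.0584). Cma1, the gene of mast cell chymase, had a difference of -0.23 in C57.YA that was not called (adjusted p of 0.112). Of 7 dendritic cell genes, the transcription factor gene Zbtb46 alone was tested, and it fell by 0.20 with castration in C57.YA (adjusted p of 0.0693). A single gene near the limit of detection does not show a change of dendritic cells. Of 8 further B cell genes, Fcer2a alone was tested and was not called in any comparison, with 0.09 and 0.03 for castration in C57BL/6J and in C57.YA.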
